A study of Danio rerio with 49 samples.

Results

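The windows described here had the lowest z-scores in early wild-type zebrafish embryos. They were the genomic windows whose z-score, averaged over the 3 wild-type (WT) libraries taken before the mid-blastula transition (preMBT), lay below -1.5. The long arm of chromosome 4, taken as window centres at or above position 28000000, was left out, which removed 77 windows below the same threshold. The remaining 3559 windows were 3.01% of the 118266 windows off that arm, and the series had 120059 windows with a profile in all. A z-score here is the smoothed ratio of a library's read counts to G1 counts, centred and scaled over the windows of that library, so a higher value means that the window was copied earlier than other windows of that library. The preMBT WT values chose the windows, so their low level is not a result.

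Replication timing is the order in which parts of a genome are copied during S phase, and it is read from copy number because S-phase DNA holds more copies of what was copied early. In zebrafish the first cell cycles after fertilisation are rapid and lack gap phases, and cycles lengthen and zygotic transcription starts around the mid-blastula transition. Rif1 binds protein phosphatase 1 and, in yeast and mammalian cells, limits the firing of late origins.

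All embryos were of the Tab5 strain. The omf201 embryos were homozygous for the omf201 allele of rif1 at every stage, and the WT embryos were labelled wild type. Pools of over 100 whole embryos of each genotype were taken at preMBT (2 to 2.5 hours post fertilisation, hpf) and at Shield (6 hpf) and treated as S phase without sorting. Nuclei of Bud (10 hpf) and 24 hpf embryos were sorted by DNA content into G1 and S fractions, so the step from Shield to Bud changed the kind of sample as well as the stage, and the effects of these cannot be told apart. The preMBT groups had 3 libraries each, Bud and 24 hpf had 4 S-phase and 4 G1 libraries per genotype, and Shield had 5 omf201 and 6 WT libraries. At Shield, 3 pairs of libraries were near sampling noise over 1 Mb bins (chi-square per degree of freedom 0.963 to 1.07). Other pairs of their groups were above the limit of 1.2 used for this. Each near pair was averaged and counted as 1 sample, which left 4 samples per genotype. The labels do not say whether libraries of a group came from separate pools, and p-values measure the spread between these libraries only.

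Total counts over windows that do not overlap were 15.46 to 17.44 M (mega) per omf201 preMBT library and 13.94 to 15.3 M per WT preMBT library. A member window held a median of 774 to 855 counts in the WT preMBT libraries, so counting error of a single window was 3.42 to 3.59% before smoothing. This covers counting only, since reads carried no molecular identifiers. On the log2 scale the preMBT WT ratio of the members had a median of -0.07, which is of the order of that error before smoothing. The 3 preMBT pairs within each genotype were all near sampling noise (0.912 to 1.1), and whether these libraries came from 1 pool was not tested.

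The members lay in 160 runs of overlapping or touching windows, 47.3 Mb in total. A run had a median of 17 windows and 250 kb. The longest run spanned 950 kb with 90 windows, and 13 runs held fewer than 5 windows. Because 60 kb windows with centres 10 kb apart share reads, counts of windows below are counts of overlapping measurements. Counts of runs are given beside some of them. Members occurred on 24 of 25 chromosomes and were absent from chromosome 25. Chromosome 7 held the most, with 443 windows or 12.4% of all members, and chromosome 22 had the highest share of its own windows among them, 9.13%. Only 17 members (0.478%) lay within 1 Mb of a chromosome end, beside 29.7% of the 5487 windows above the mirrored threshold of the earliest preMBT WT windows and 1.53% of all other windows. The members were a median of 18.3 Mb from an end, the earliest windows 2.12 Mb.

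At 24 hpf most of these windows had a z-score above 0: 66.4% of members in omf201 and 61.5% in WT, beside 41.97% and 50.3% of all windows. The members' median z-score in omf201 embryos was -0.306 at Shield, 0.891 at Bud and 0.876 at 24 hpf, beside -0.0295, -0.0451 and -0.211 over all windows. In WT embryos it was -0.346 at Shield, then 0.517 at Bud and 0.815 at 24 hpf, beside 0.00262, 0.0960 and 0.0106 over all windows. The members thus stood below the genome's middle at Shield and above it at Bud and 24 hpf in both genotypes.

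The medians of single samples lay close together. At 24 hpf the omf201 samples had member medians of 0.859, 0.825, 0.877 and 0.882, and the WT samples had 0.792, 0.832, 0.779 and 0.766. The genotypes overlapped at 24 hpf, since the WT sample at 0.832 was above the omf201 sample at 0.825. On the deposited log2 ratios the 24 hpf member medians were 0.14, 0.13, 0.13 and 0.14 in omf201, against 0.16, 0.16, 0.15 and 0.15 in WT, lower in omf201 with no overlap. The order of the genotypes in these medians at 24 hpf therefore depended on the scale. At Bud the omf201 samples had 0.891, 0.920, 0.856 and 0.889, against 0.516, 0.513, 0.457 and 0.596 in the WT samples, with no overlap. At Shield the omf201 samples had -0.159 (the averaged pair), -0.433, -0.336 and -0.341, and the WT samples had -0.280 and -0.344 (the averaged pairs), -0.416 and -0.365. The Shield values of the genotypes were interleaved.

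**Figure D1:**
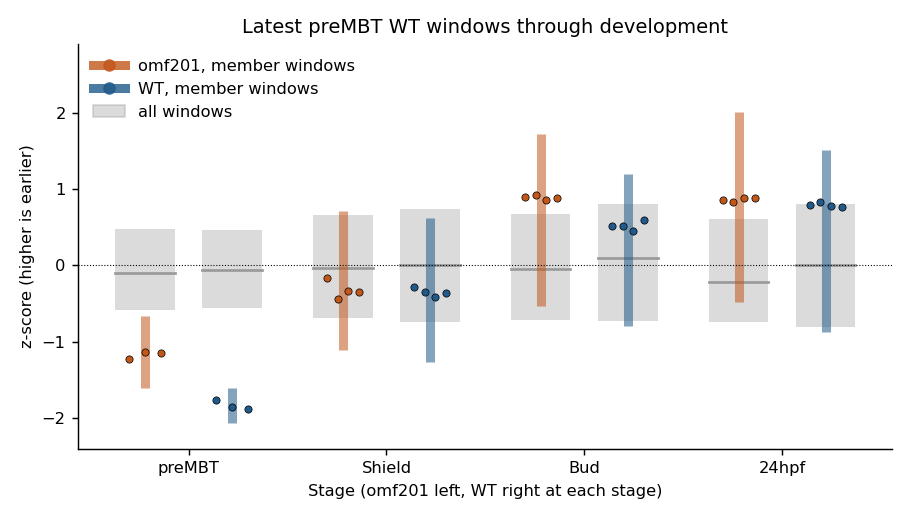
z-scores of the 3559 members (y axis, higher is earlier) at each stage (x axis), with omf201 in orange left of WT in blue; coloured bars span the middle 50% of members, points are medians of single samples, and grey boxes with a line show the quartiles and median of all windows. The members lie below the grey boxes at preMBT, where the WT values chose them, and their medians are above the all-window medians at Bud and 24 hpf.

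At 24 hpf the members' excess over all windows lay mainly above a z-score of 1. Their shares below -1 were closer to those of all windows. At 24 hpf in omf201 embryos 47.1% of members had a z-score above 1, beside 17.5% of all windows, and 14.8% lay below -1, beside 14.2%. At 24 hpf in WT, 43.0% of members were above 1, beside 19.3% of all windows, and 22.9% below -1, beside 19.8%. The middle range of WT held 34.2% of members and 60.9% of all windows. Over the later stages of WT, 1152 members (32.4%, all windows 33.9%) were below 0 at every stage from Shield on. Another 1323 (37.2%, all windows 35.5%) were above 0 at the same 3 stages. A further 659 members (18.5%) were below 0 at Shield and above 0 at Bud and 24 hpf, beside 7.53% of all windows. In omf201 embryos 915 members (25.7%) were below 0 at those 3 stages, beside 29.96% of all windows, and 1330 (37.4%) were above 0 at all of them, beside 21.9%.

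**Figure D2:**
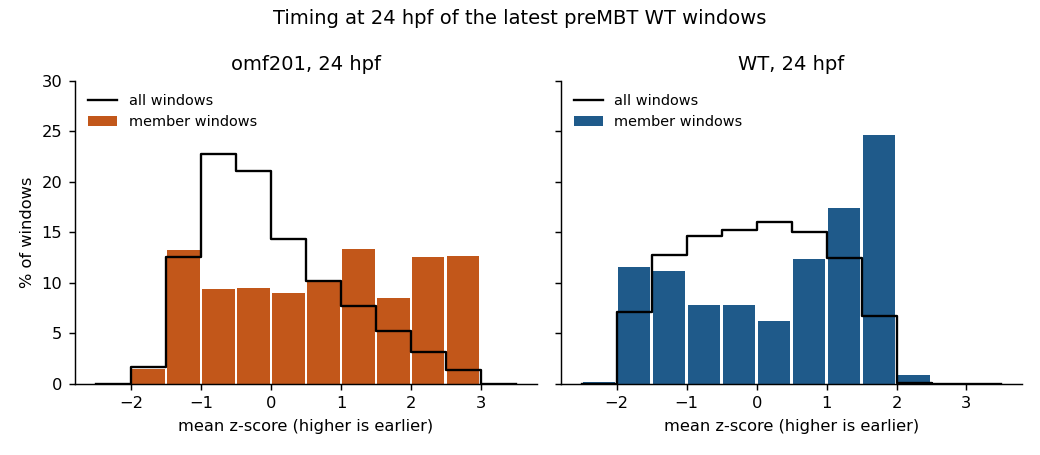
Share of windows (y axis, %) by mean z-score at 24 hpf (x axis, bins of z-score, higher is earlier) in omf201 (left) and WT (right); bars are the 3559 members and the black line is all windows. In WT the black line peaks in the middle, where the bars are lower. Above 1 lie 43.0% of members, beside 19.3% of all windows, and below -1 lie 22.9%, nearer to the 19.8% of all windows.

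The windows of the opposite tail served as a comparison. The 5487 earliest preMBT WT windows had a 24 hpf median of -0.574 in omf201 and -0.237 in WT, both below the members' medians. Across all windows the preMBT and 24 hpf WT profiles had a Pearson correlation of -0.172, and within the members it was 0.119 (3559 overlapping windows). These points share reads with their neighbours and share the WT G1 reference, and no test was made. Within the members, the WT profiles of Shield and 24 hpf correlated at 0.775, beside 0.621 over all windows. Those of Bud and 24 hpf correlated at 0.885, beside 0.817.

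Stage steps that did not use the preMBT WT libraries were tested per window with limma on the z-scores. A window was called at a Benjamini-Hochberg adjusted p under 0.05 over all 120059 windows. The rule used the WT G1 libraries of Bud and 24 hpf, which are also the reference of the WT profiles. The WT steps were therefore not independent of the choice of windows. Members' G1 counts were raised in omf201 too, and their part in the omf201 steps was not tested. From Bud to 24 hpf in omf201, 1503 members (42.2%) were called higher at 24 hpf and 719 (20.2%) lower, beside 26.7% and 28.2% of all windows. In WT, 1602 members (45.0%) were called higher at 24 hpf than at Bud and 573 (16.1%) lower, beside 30.7% and 30.8% of all windows. Calls in either direction covered 62.4% of members in omf201, beside 54.9% of all windows, and 61.1% in WT, near the 61.6% of all windows.

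More members were called higher in the step from Shield to Bud. In omf201, 2266 members (63.7%) in 113 runs were called higher at Bud and 280 (7.87%) lower, beside 26.4% and 29.0% of all windows, and the median difference was 0.818. In WT, 1861 members (52.3%) in 104 runs were called higher at Bud and 277 (7.78%) lower, beside 25.7% and 27.9% of all windows, with a median difference of 0.391. Calls in either direction covered 71.5% of members in omf201 and 60.1% in WT, beside 55.5% and 53.6% of all windows. The step from whole embryos to sorted nuclei fell at the same place.

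For the first step only omf201 was tested, since the WT preMBT values chose the members. The omf201 step was not independent of that choice either. Across all windows the preMBT profiles of omf201 and WT had a Pearson correlation of 0.547. The members' preMBT median in omf201 was -1.13, and the part of this low start in the omf201 calls was not tested. The 3 omf201 preMBT libraries were counted as 3 samples, although all their pairs were near sampling noise (chi-square per degree of freedom 1.02 to 1.05). In omf201, 1902 members (53.4%) were called higher at Shield than at preMBT and 507 (14.2%) lower, beside 29.0% and 28.8% of all windows, 67.7% in either direction beside 57.8%. The higher calls were 79.0% of all member calls on z-scores. On log2 ratios they were 57.5%, with 1540 members called higher and 1137 lower, so the balance was much weaker on that scale. The split over all windows on log2 ratios is not given here. In WT the median member difference of Shield minus preMBT was 1.44, given as a description.

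**Figure D3:**
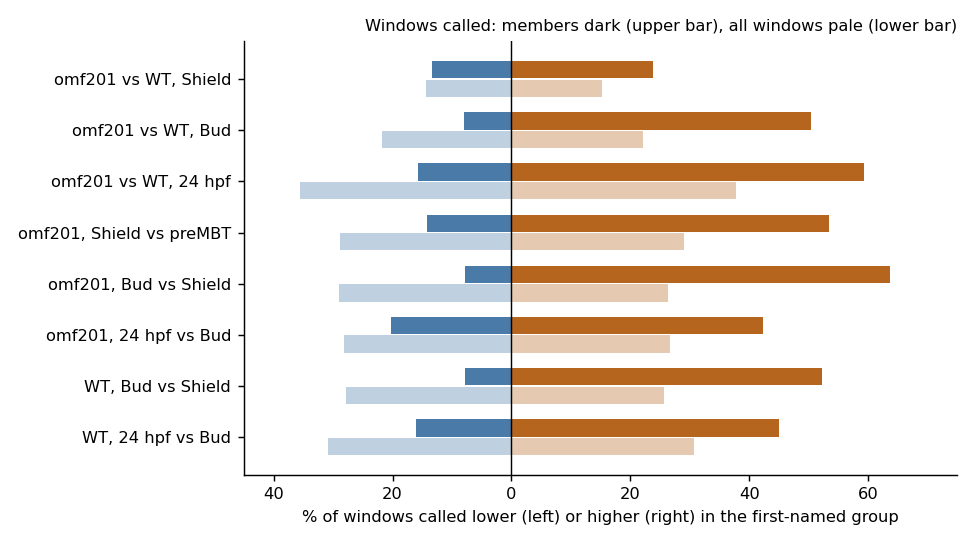
Share of windows (x axis, %) called higher (right of 0) or lower (left of 0) in the first-named group by limma at an adjusted p under 0.05, for each comparison (y axis); dark upper bars are the 3559 members and pale lower bars all 120059 windows. In every comparison drawn the dark bar to the right is longer than the pale one, and the difference is smallest for omf201 against WT at Shield, where its direction depends on the G1 reference.

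In preMBT omf201 embryos the same windows also had low z-scores, though less low than in WT. The members' medians were -1.22, -1.14 and -1.14 in the 3 omf201 libraries, against -1.76, -1.85 and -1.88 in the WT libraries that chose them. Because the WT values chose the windows, this gap is a description and was not tested. The members' preMBT counts, as the median log2 of the count over the library mean, were 0.01 in omf201 and -0.03 in WT, beside 0.00 over all windows in both genotypes. In the G1 libraries that form the omf201 reference they were 0.05 at Bud and 0.04 at 24 hpf. The low omf201 ratio thus stood beside an average preMBT count and a raised G1 count, and the part of the G1 counts in it was not tested. Of the members, 1024 (28.8%) were below -1.5 in omf201 too, beside 2.75% of all windows, and 327 were above 0. The same threshold applied to omf201 gave 3057 windows off the arm, of which the shared 1024 were 33.5%. When 2 WT libraries chose the windows and the remaining WT library was read, its median was -1.51, -1.57 or -1.58 and 51.1% to 53.7% of the windows were below -1.5 in it. The remaining library shares the WT G1 reference with the other 2, so this reading was not independent of the choice.

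Windows at the threshold were early or late at 24 hpf on either side of it. The 3 members nearest to it, had 24 hpf WT values of -1.61, 1.68 and -0.913. The 3 windows just outside had 0.875, 1.43 and -1.15.

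The genotypes were compared at the later stages with the same test. At Bud, 1795 members (50.4%) in 96 runs were called higher in omf201 than in WT and 283 (7.95%) lower, beside 22.1% and 21.8% of all windows. The median member difference was 0.493, beside 0.0267 over all windows. At 24 hpf, 2110 members (59.3%) in 97 runs were called higher in omf201 and 559 (15.7%) in 39 runs lower, beside 37.8% and 35.5% of all windows, with a median difference of 0.482. On log2 ratios the median member difference was 0.02 at Bud and 0.07 at 24 hpf, with 1227 (34.5%) higher and 373 (10.5%) lower calls at Bud, beside 29.2% and 28.2% of all windows. At 24 hpf the log2 calls were 1968 (55.3%) higher and 677 (19.0%) lower in omf201, beside 40.7% and 35.8%, although the sample medians above were lower in omf201 on that scale. The total called at 24 hpf, 2669 members or 74.99%, was near the background of 73.3%, and at Bud it was 2078 members or 58.4%, beside 43.9%.

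At Shield, 848 members (23.8%) were called higher in omf201 and 473 (13.3%) lower, beside 15.2% and 14.4% of all windows, 1321 in all (37.1%, background 29.6%). On log2 ratios 1284 members (36.1%) were called higher in omf201 and 611 (17.2%) lower, beside 26.8% and 26.0% of all windows. The balance at Shield depended on the G1 reference. With a common reference of all 16 G1 libraries, 727 members (20.4%) were called higher in omf201 and 879 (24.7%) lower, beside 17.7% and 17.3% of all windows. No direction can therefore be given for the members at Shield.

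The WT G1 libraries are the denominator of the rule and of each WT profile, so these genotype differences were not independent of the choice of windows. Values that do not use the genotypes' separate references are given for that reason. With the common reference 1543 members (43.4%) were called higher and 361 (10.1%) lower in omf201 at Bud, beside 25.7% and 24.5% of all windows. At 24 hpf they were 1952 (54.8%) and 711 (19.98%), beside 38.7% and 36.9%. On the S-phase counts alone, without any G1 reference, edgeR's quasi-likelihood test called 731 members (20.5%) higher and 371 (10.4%) lower at Bud, beside 17.9% and 17.4% of all windows, a smaller total share of members (30.96%) than of all windows (35.3%). The median member difference in log2 count was 0.01 at Bud and 0.05 at 24 hpf. At 24 hpf it called 1409 (39.6%) higher and 722 (20.3%) lower, beside 31.4% and 31.0%. At Shield it called 729 (20.5%) higher and 462 (12.98%) lower, beside 15.4% and 13.7%, while the median log2 difference of the members was -0.01. Of the members called, omf201 was thus the higher genotype in 66.3% on counts and 86.4% on z-scores at Bud, and in 66.1% and 79.1% at 24 hpf.

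Whether the genotype difference changed between stages was tested with limma's interaction term. From Shield to Bud the change was called for 1360 members (38.2%, background 25.5%), with 1113 (31.3%) moving upward in omf201 relative to WT and 247 (6.94%) downward, beside 12.6% and 12.9% of all windows. Upward calls were 81.8% on z-scores, 63.5% on log2 ratios and 58.5% on unsmoothed ratios. On log2 ratios the members were called less often than all windows, 19.9% beside 24.8%. From Bud to 24 hpf 927 members (26.0%) were called, near the background of 26.4%, with 376 (10.6%) upward and 551 (15.5%) downward, beside 13.1% and 13.3%. Upward calls were 40.6% of these on z-scores and 69.5% on log2 ratios, so this last balance has no settled direction.

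Single runs showed how far the members differed among themselves. The values that follow are means over the windows of a run in each sample, and each test is that of the run's centre window in the limma fit, with p-values adjusted over all windows. Coordinates are those of the deposited tables on GRCz11, the build in the submitters' processing notes. No annotation of that build was used, so the genes in these runs are not given.

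The run with the most windows, chr5:49210000-50160001 with 90 windows, went from preMBT z-scores below 0 to 24 hpf z-scores above 0 in both genotypes. At preMBT its omf201 libraries were at -1.51, -2.11 and -1.995, and the WT libraries at -2.36, -1.55 and -1.72. At 24 hpf the omf201 samples were at 2.39, 2.51, 2.50 and 2.80, against 1.27, 1.31, 1.23 and 1.38 in WT. All 24 hpf samples were early, and every omf201 sample was above every WT sample. The centre window differed by 1.23 ± 0.133 (omf201 minus WT, SE, adjusted p = 2.35e-06) at 24 hpf and by 0.537 ± 0.175 at Bud (adjusted p = 0.0193), where its sign turned on log2 and on unsmoothed ratios.

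The same course was seen at chr13:16880000-17590001 with 66 windows and at chr7:54530000-55140001 with 52. The chromosome 13 run had 24 hpf values of 2.34, 2.50, 2.28 and 2.72 in omf201, against 1.04, 0.965, 0.856 and 0.790 in WT. At preMBT the chromosome 7 run was at -2.17, -2.02 and -1.58 in omf201 and -2.48, -2.99 and -2.73 in WT. At 24 hpf the chromosome 7 run stood at 2.56, 2.24, 2.46 and 2.46 in omf201, against 1.43, 1.38, 1.49 and 1.35 in WT. In both runs the genotypes did not overlap at 24 hpf. The centre windows were higher in omf201 by 1.64 ± 0.113 (adjusted p = 4.46e-08) on chromosome 13 and by 1.10 ± 0.116 (adjusted p = 1.94e-06) on chromosome 7.

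Other long runs stayed below 0. At chr20:10840000-11790001, with 82 windows, the Shield samples were at -2.39, -2.28, -2.12 and -2.28 in omf201 and at -2.06, -1.83, -2.46 and -2.03 in WT. At 24 hpf it was at -0.595, -1.005, -0.429 and -0.739 in omf201, against -1.76, -1.16, -1.34 and -1.18 in WT. All samples were below 0, with omf201 less late at 24 hpf (centre window 0.615 ± 0.180, adjusted p = 0.00751). At chr24:21860000-22660001, with 74 windows, all samples of all stages were also below 0, and the 24 hpf values of -0.559, -0.826, -0.605 and -1.59 in omf201 overlapped those of -0.592, -1.28, -1.02 and -0.888 in WT. The run at chr1:57820000-58570001 was below 0 throughout as well, with 24 hpf means of -1.498 ± 0.207 in omf201 and -1.55 ± 0.120 in WT (SD, n = 4 each).

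A few long runs split the genotypes across 0. At chr7:63300000-64150001, with 69 windows, the 24 hpf samples were at 0.387, 0.164, 0.334 and 0.323 in omf201, against -0.760, -0.826, -0.708 and -0.692 in WT. At chr19:17450000-18070001, with 53 windows, the order was turned round, with Bud values of -0.880, -0.558, -0.729 and -0.937 in omf201, against 0.292, 0.0860, 0.336 and 0.479 in WT. The centre window of the chromosome 19 run was lower in omf201 by limma at Bud (-1.49 ± 0.185, adjusted p = 2.11e-05) and at 24 hpf (-1.10 ± 0.110, adjusted p = 1.13e-06).

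**Figure D4:**
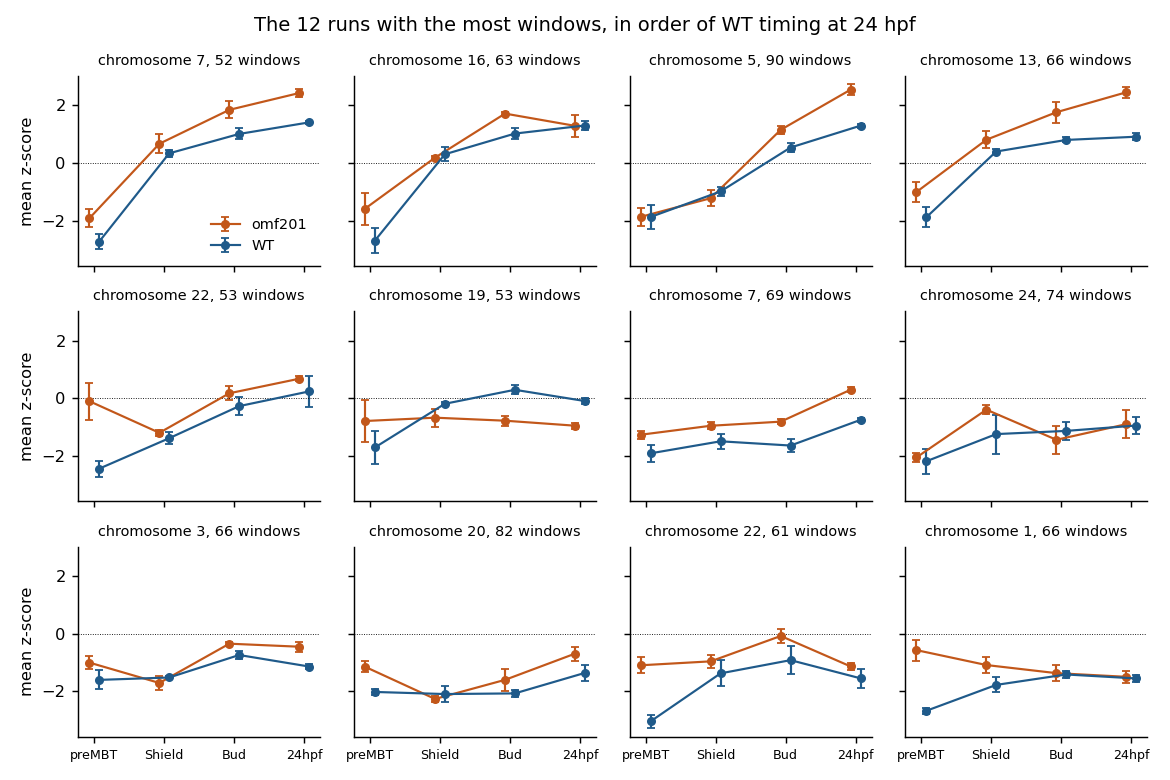
Mean z-score (y axis, higher is earlier) by stage (x axis) in the 12 runs with the most windows, ordered by WT timing at 24 hpf, with omf201 in orange and WT in blue; points are means over samples and bars are SD (3 preMBT samples, 4 at other stages). The upper row holds the runs that were early by 24 hpf, such as the chromosome 5 run at 2.55 in omf201 and 1.298 in WT, and the lower row holds runs that stayed below 0.

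Among runs of at least 5 windows with a called centre window, the largest omf201 excess at 24 hpf was at chr12:32830000-33040001. Its 24 hpf samples were at 0.774, 0.925, 0.724 and 0.979 in omf201, against -1.23, -1.32, -1.12 and -1.22 in WT (centre window 2.09 ± 0.0896, adjusted p = 3.08e-09 by limma). The largest deficit was at chr3:52970000-53320001, at -0.391, -0.118, 0.114 and -0.157 in omf201, against 1.60, 1.68, 2.03 and 1.76 in WT (centre window -1.96 ± 0.126, adjusted p = 2.58e-08). At Shield that chromosome 3 run had the same timing in both genotypes within their spread, with means of 1.16 ± 0.119 in omf201 and 1.21 ± 0.0989 in WT (SD, n = 4 each). The runs that ended earliest in WT were chr21:23120000-23280001, with a 24 hpf mean of 2.14 ± 0.123, and chr10:28020000-28310001, with 2.07 ± 0.124 (SD, n = 4 each). Both were lower in omf201, at 1.71 ± 0.173 and 1.34 ± 0.0856.

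At Bud the excess of omf201 stood out at chr2:18330000-18780001, with 0.887, 0.872, 1.13 and 0.611 in omf201, against -1.32, -0.891, -1.82 and -1.56 in WT (centre window 2.41 ± 0.201, adjusted p = 4.37e-06 by limma). At Shield the widest deficit was at chr19:24080000-24370001, with -1.40, -2.05, -1.38 and -1.84 in omf201, against -0.323, -0.191, 0.414 and -0.122 in WT (centre window -1.75 ± 0.194, adjusted p = 1.15e-05). Over all 160 runs, the centre window was called higher in omf201 in 43 runs and lower in 20 at Shield, in 81 and 15 at Bud, and in 84 and 26 at 24 hpf. Of all windows, 15.2% were called higher and 14.4% lower at Shield, 22.1% and 21.8% at Bud, and 37.8% and 35.5% at 24 hpf. The balance of member calls at Shield depended on the G1 reference, so the Shield counts give no direction.

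The lowest single window was chr3:2700000-2800001, in a run of 8 windows, all over 60 kb wide, that borders a gap in the profile. It had preMBT z-scores of 3.69, 2.01 and 2.86 in omf201, against -12.6, -13.4 and -11.8 in WT. At Bud the omf201 samples of this window were at 3.22, -2.27, 4.55 and -2.04, and the WT samples at -2.53, -1.91, -2.99 and -2.34. The omf201 samples thus fell on both sides of 0 while WT did not. The Shield excess of omf201 was also large in 2 other runs of wide windows, chr3:8690000-8870001 and chr7:30000-250001, and on chromosome 7 its sign turned with the common G1 reference (centre window -0.460).

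Members wider than 60 kb were later at Bud and 24 hpf than 60 kb members, as were wide windows in general beside 60 kb windows. All shares and medians in this paragraph leave out the chromosome 4 arm. Of the members 3191 (89.7%) were 60 kb wide, beside 92.4% of windows that were neither members nor earliest windows. Another 342 members (9.61%) were wider, beside 7.18% of those windows and 26.5% of the earliest windows. The share of windows that were members was 2.95% at 60 kb, 2.67% at 80 kb, 7.90% at 100 kb and 13.6% over 100 kb. The 60 kb members had 24 hpf medians of 1.04 in omf201 and 0.936 in WT, beside -0.144 and 0.0951 over all 60 kb windows. Members wider than 60 kb had -0.577 in omf201 and -1.17 in WT, beside -0.726 and -0.699 over all windows of that width. At Bud they had -0.590 in omf201 and -0.878 in WT, beside -0.528 and -0.526. At preMBT, members over 100 kb had a median of -0.0828 in omf201, against -1.92 in WT, beside 0.337 and -0.198 over all windows that wide, where members of 60 kb had -1.16 in omf201 and -1.75 in WT. Of the members, 66 (1.85%) lay within 200 kb of a gap, beside 4.28% of the earliest windows and 0.732% of all others.

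The counts behind the ratio differed between members that ended early and late. The 2189 members above 0 at 24 hpf in WT lay in 106 runs, and 96.2% of them were 60 kb wide. In preMBT libraries their counts, as the median log2 of the count over the library mean, were 0.02 in omf201 and 0.00 in WT, both near the genome's average. Their G1 counts were above average, at 0.08 in omf201 and 0.10 in WT at Bud and at 0.06 and 0.07 at 24 hpf. The low preMBT ratio of these windows thus came with a high G1 count and an average preMBT count.

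The 1370 members at or below 0 at 24 hpf in WT lay in 72 runs, and 79.3% were 60 kb wide. Their preMBT counts were low, at -0.04 in omf201 and -0.08 in WT. Their G1 counts were near average, at -0.02 in omf201 and 0.00 in WT at Bud and at 0.01 in both genotypes at 24 hpf. The part of G1 counts in the preMBT values was not tested. The G1 libraries came from Bud and 24 hpf embryos, and no preMBT G1 library was analysed here.

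**Figure D5:**
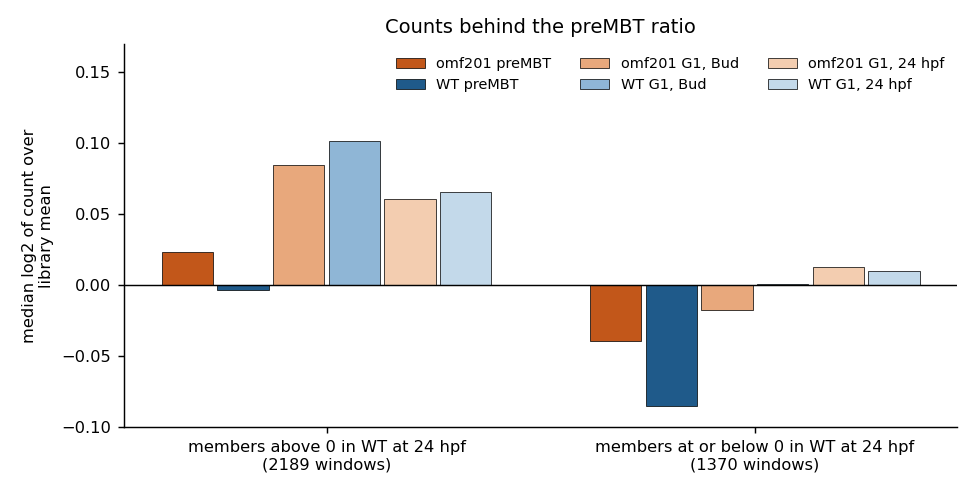
Median log2 of the count over the library mean (y axis) in members above 0 in WT at 24 hpf (left group of bars) and in the other members (right group), for preMBT libraries and for the G1 libraries of Bud and 24 hpf, with omf201 left of WT in each pair. On the left the G1 bars are above 0 (0.06 to 0.10) and the preMBT bars near 0, and on the right the preMBT bars are below 0 and the G1 bars near 0.

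The preMBT WT level of the members varied with the reference. Every value at preMBT here uses the 3 WT libraries that chose the members. The Bud and 24 hpf WT G1 libraries were also part of the reference used by the rule. A level below that of all windows is therefore not a result, and only the change with the reference is described. Divided by the Bud WT G1 libraries alone, the members' median was -1.86 and 67.6% were below -1.5, beside 4.69% of all windows. Divided by the 24 hpf WT G1 libraries alone, the median was -1.54 with 52.8% below -1.5, and with the common reference -1.58 with 56.2%. With the omf201 G1 libraries as reference the WT preMBT median was -1.23 with 33.5% below -1.5, beside 3.18% of all windows. Set against WT Shield libraries in place of G1, the median was -0.350 with 19.7% below, beside 5.46%. The members chosen on the common reference had a 24 hpf median of 0.579 in omf201 and 0.213 in WT, so how early these windows were at 24 hpf depended on which G1 libraries chose them.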

How the data were processed

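The members, the rule for named runs and the tests were chosen with earlier results of these data known. Reads were processed with fastp, BWA and Picard on GRCz11, per the submitters' processing notes, and then by the authors' own pipeline, RepliTimer v1.0.11, as the series' design text states. Read filters and tool settings are not given in the sources used here. The deposited counts are whole reads per window for each of 49 libraries (5.09 to 32.21 M per library over 17657 windows that do not overlap), without normalisation. Recomputing showed that the deposited ratio is a library's mean-scaled count over the median of 8 mean-scaled G1 libraries of its genotype, from Bud and 24 hpf together. The authors' smoothed ratio could be rebuilt with a cubic smoothing spline (penalty 1e+16, in bp cubed) broken at gaps over 200 kb. The deposited log2 values are log2 of the smoothed ratios, and the authors' score (z) is the smoothed ratio, centred and scaled to SD within its library. The labels' protocols name a later age for the sort of the 24 hpf nuclei, and the stage label was used.

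Windows were tested with limma 3.58.1 (lmFit and eBayes) on z-scores, with only the groups compared in each fit, and Benjamini-Hochberg adjustment over 120059 windows. The script was tested on simulated data with 200 changed windows. Of a planted z-score difference of 1, limma recovered 56% of windows at Shield, 41.5% at Bud and 91.5% at 24 hpf. False calls were 5.88%, 3.49% and 4.19% of its calls. In the simulation only these 200 windows were changed, while 29.6%, 43.9% and 73.3% of all windows were called in the data at those stages. The recovery rates therefore do not carry over to the data. In the data the median SE over all windows was 0.162 at Shield, 0.182 at Bud and 0.0984 at 24 hpf. Counts of calls at different stages were thus not made with equal precision. The simulated windows varied independently, unlike the overlapping windows of the data. The count alternative was edgeR 4.0.16 (quasi-likelihood, TMM). Other alternatives were log2 ratios, unsmoothed ratios, a common G1 reference, replicates left out, a replicate block, other thresholds for membership and 60 kb members only. The preMBT profiles on other G1 sets were added after seeing the data. Named runs were the 12 with the most windows, the run of the lowest window, and, among runs of at least 5 windows, the 3 at each end of the genotype difference at each later stage (centre window called) and of the 24 hpf WT mean. Python 3.11.15, numpy 2.4.6, scipy 1.17.1, pandas 2.3.3, matplotlib 3.10.9 and R 4.3.3 were used.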

Additional observations from a re-analysis of the deposited data

Results flagged for a closer look

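The named runs and the members' medians gave 180 groups of 4 samples, and in 10 of them the highest or lowest sample stood apart from the rest by Dixon's criterion. Chance gives about 5% of independent groups. These groups share the same libraries, so the number cannot be set against chance. At 24 hpf, WT replicate 1 stood apart in 3 runs: chr1:56450000-56650001 at -2.78, chr2:18330000-18780001 at -0.663 and chr22:30320000-30960001 at -0.545. In the chromosome 22 run the other WT samples were above 0, at 0.407 to 0.565. Over 1 Mb bins, pairs of 24 hpf WT S-phase libraries with replicate 1 had chi-square per degree of freedom of 4.61, 5.77 and 4.83. The other pairs of that group had 2.68, 3.56 and 3.27.

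At Bud, WT replicate 1 stood apart at chr3:51040000-51810001 with -0.529 and at chr3:52970000-53320001 with 1.84. WT replicate 4 did so at chr7:54530000-55140001 with 1.295, and WT replicate 3 at chr17:35670000-36020001 with 0.428.

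At Shield, omf201 replicate 5 was at -1.49 in chr19:24550000-25130001. In chr22:9090000-9480001, a run of wide windows, omf201 replicate 3 was at 1.48 and the averaged WT replicates 1 and 2 at -1.73.

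The genotype difference was called as changed by limma's interaction term between Shield and Bud in 1360 members (38.2%), beside 25.5% of all windows. Between Bud and 24 hpf it was called in 927 (26.0%), near the 26.4% of all windows. On unsmoothed ratios these calls fell to 94 (2.64%, all windows 2.18%) and 105 (2.95%, 3.65%).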

How the results depend on the processing

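Of the 224 values of whole comparisons under the alternatives, 194 kept their direction and their side of the threshold, or their size, 16 medians moved, 10 counts of calls fell by more than 1.5 times and 4 balances turned. On unsmoothed ratios fewer members were called: 583 (16.4% of members, 13.5% of all windows) for omf201 against WT at Shield, 546 (15.3%, 12.98%) at Bud, 1083 (30.4%, 32.5%) for WT from Bud to 24 hpf, 1537 (43.2%, 30.98%) for omf201 from preMBT to Shield, 1444 (40.6%, 26.95%) from Shield to Bud, 1083 (30.4%, 25.2%) from Bud to 24 hpf, and 94 (2.64%, 2.18%) and 105 (2.95%, 3.65%) for the genotype by stage interactions of Shield to Bud and Bud to 24 hpf. On log2 ratios the interactions had 707 (19.9%, 24.8%) and 1306 (36.7%, 40.2%) calls, and the balance of the second turned (908 upward, 398 downward). The balance at Shield turned with the common G1 reference (1606 calls). It also turned for members chosen on that reference, a set of 3274 windows. Of these, 1201 were called at Shield (36.7%, all windows 29.6%), 521 higher and 680 lower in omf201. In the same set the balance of the Bud to 24 hpf interaction turned as well. Its 811 calls (24.8%, all windows 26.4%) were 589 upward and 222 downward, and their total share was not above that of all windows. On counts edgeR called 1102 members (30.96%, 35.3%) at Bud.

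The 24 hpf member median in omf201 was 0.837 with the common reference, 0.798 and 0.775 with the looser and the stricter threshold of membership, 0.763 and 0.775 for members chosen without preMBT WT replicate 1 or 3, 0.579 for members chosen on the common reference, 1.04 for 60 kb members and 0.839 with the chromosome 4 arm. In WT it was 0.773 and 0.957 with those thresholds. It was 0.718 to 0.854 for members chosen without 1 preMBT library (0.741 without replicate 1), and 0.213 for members chosen on the common reference. For 60 kb members it was 0.936, and with the arm 0.775. Among centre windows the sign turned on chromosome 5 at Bud (chr5:49210000-50160001, -0.25 unsmoothed and -0.00445 on log2 ratios), chr7:30000-250001 at Shield (-0.460, common reference), chr7:54530000-55140001 at Bud (-0.183, unsmoothed) and chr17:24360000-24610001 at 24 hpf (0.241, unsmoothed). These causes were not tested. Depth limited single windows, with a counting error of up to 5.64% for members in the shallowest Bud omf201 library.

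Leaving out 1 sample gave 916 to 1269 member calls for the genotypes at Shield, 1657 to 2155 at Bud and 2549 to 2672 at 24 hpf. WT had 2016 to 2125 from Shield to Bud and 1999 to 2128 from Bud to 24 hpf. In omf201 there were 2196 to 2469 from preMBT to Shield, 2385 to 2582 from Shield to Bud and 1939 to 2232 from Bud to 24 hpf. The interactions had 1011 to 1521 and 733 to 1040. Shares over all windows are not given for these fits, so the ranges are no result about the members. With all samples, 74.99% of members and 73.3% of all windows were called for the genotypes at 24 hpf. For WT from Bud to 24 hpf these were 61.1% and 61.6%, and for the Bud to 24 hpf interaction 26.0% and 26.4%. With the replicate number as a block there were 901 calls (25.3%, 19.3%) at Shield, 2133 (59.9%, 43.9%) at Bud and 2678 (75.2%, 72.8%) at 24 hpf. At Bud and 24 hpf, same-numbered samples had correlated deviations of -0.0435 to 0.0356, so the numbers were not taken as pairs. Shield was not part of this check.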
